A study of Mus musculus with 7 samples.

Results

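Colon epithelial and secretory cell genes were followed array by array in RNA of macrophages sorted from the inflamed mouse colon. The set holds 35 genes, listed by name as markers of the colon epithelium, its goblet cells and its antimicrobial products. All 35 were measured, among 22180 genes in all, and 33 of them had a mean over the 7 arrays above that of the median gene (the exceptions were Aqp8 and Phgr1). The genes were chosen by name, with earlier results of these arrays known, and the probe set of each was selected on its mean over the 7 arrays (the highest was kept). Levels are therefore given as a description. A choice was needed for 4 genes. The probe sets not used lay at means of 4.78 for Cdh1, 3.61 for Krt18, 4.30 for Phgr1 and 8.35 for Muc2, on the log2 scale.

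Floxed Rictor alleles were present in every mouse; the Rictor protein is part of the mTORC2 kinase complex. The 3 control samples were Rictorfl/fl LysM+/+, without cre recombinase. The other 4 samples were Rictorfl/fl LysM+/cre, with 1 copy of cre in the LysM (Lyz2) locus, a driver active in myeloid cells, and no group carried cre without the floxed alleles. Both groups had received 5% dextran sulphate sodium, a polysaccharide that injures the colon epithelium, for 5 days and then water for 3 days. Cells were sorted from the lamina propria as CD45+ CD11b+ CD64+ MHCII+ Ly6C-, a gate defined on leukocyte and macrophage markers. One Affymetrix Mouse Gene 2.0 ST array was run per sample. The labels used here state neither age and strain nor whether a sample was 1 mouse or a pool, so p-values measure only the spread between these samples.

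The colon epithelium is a single layer of absorptive colonocytes, mucus-secreting goblet cells and rarer hormone and tuft cells, joined by claudins and cadherin and supported by keratin filaments. Goblet cells build the mucus layer from Muc2 and proteins bound to it, while colonocytes exchange ions and water. During injury the epithelium makes lectins of the Reg3 family that act against bacteria, and it carries immunoglobulin A into the lumen with the polymeric immunoglobulin receptor. Most of these genes are not known as macrophage genes. Fewer epithelial cells and less RNA per cell cannot be told apart in such bulk samples.

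The genes of the gate itself were bright on every array. Log2 values lay between 10.85 and 11.35 for Ptprc (CD45), between 11.20 and 12.29 for Itgam (CD11b), between 9.49 and 11.10 for Fcgr1 (CD64) and between 12.59 and 13.48 for H2-Ab1 (MHC class II). Some of them differed with genotype at an unadjusted p under 0.05, though none passed the adjustment in limma. Ly6c2, which encodes a Ly6C antigen, the marker excluded by the gate, lay at 6.87, 7.15 and 7.70 without cre and at 9.30, 7.69, 7.87 and 8.48 with cre, a difference of 1.09. Fcgr1 was higher with cre by 0.97 and Itgam by 0.53, while Ptprc differed by 0.25 and H2-Ab1 by -0.044. The part of these differences in the epithelial values was not tested. The mean log2 level of 15 genes of the sorted macrophage was 10.42 to 10.57 without cre and 10.36 to 10.78 with cre. Several arrays stood apart in some genes. On LysM+/+ array 1 genes of the exocrine pancreas were high, with Ctrb1, chymotrypsinogen, at 11.21 against 5.48 to 5.89 on the other 6 arrays. Cela1, an elastase, was at 7.88 there, at 7.07 on LysM+/+ array 2 and at 5.51 to 5.94 on the rest. Of 9 acinar genes measured, 8 were highest on LysM+/+ array 1, Rbpjl being the exception. The list's mean log2 level was 7.74 on that array against 4.82 to 4.96 on the others. On LysM+/+ array 2, Mptx1, Sycn and Klk1 were at their highest while Reg3b, Reg3g and the neutrophil genes were at their lowest. LysM+/+ array 3 was highest for the Reg3 genes, and LysM+/cre array 3 for the neutrophil genes, with a mean log2 level of 8.89. Results are given with all arrays and, for the counts and medians, without each in turn.

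The members did not separate the genotypes by the test. No gene of the table passed an adjusted p of 0.05 (limma with Benjamini-Hochberg adjustment, 0% called, against 2549 genes, or 11.5%, at an unadjusted p under 0.05), and the smallest adjusted p among members was 0.354, for Zg16. As a description, 32 of 35 members had a lower mean with cre, where 48.6% of all genes did, and the median log2 difference (LysM+/cre minus LysM+/+) was -0.32 against 0.004 over all genes. The probe sets not used for Cdh1, Krt18 and Phgr1 had higher means with cre, with differences of 0.35, 0.16 and 0.13. That for Muc2 had a lower mean, with -0.17. At an unadjusted p under 0.05, 7 members were lower and 0 higher, against a background of 4.93% lower and 6.56% higher. Every LysM+/cre array lay below every LysM+/+ array for 2 members, Zg16 and Klk1, where 3.56% of all genes behaved so, and the reverse held for 0 members and 5.23% of all genes. The members were listed with earlier results of these data known, so these counts are no independent support for a direction.

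**Figure D1:**
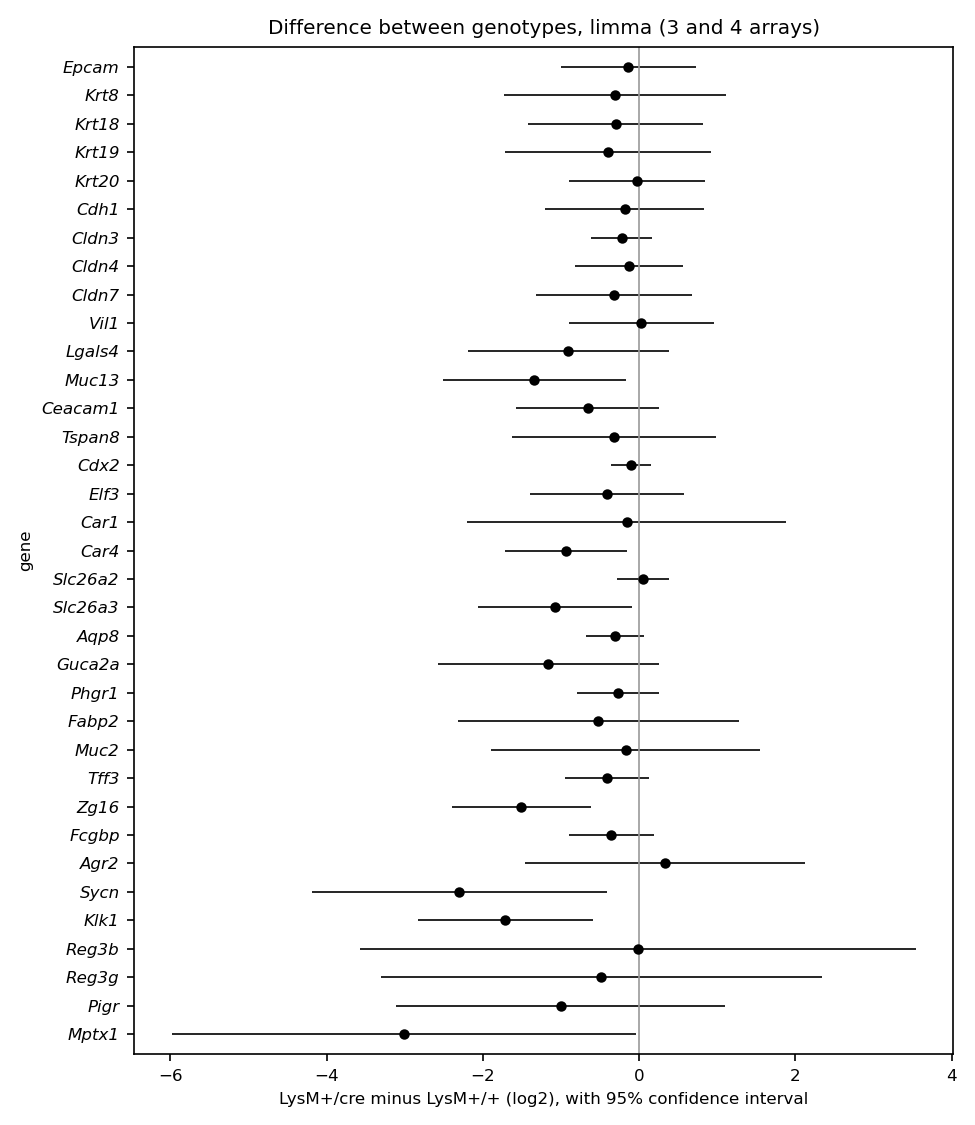
Log2 difference between genotypes (LysM+/cre minus LysM+/+, horizontal axis) for each of the 35 genes (vertical axis), from limma on 3 and 4 arrays; points are estimates and bars 95% confidence intervals before adjustment. Intervals for Mptx1, Reg3b and Reg3g are the widest, and 7 intervals exclude 0, all on the lower side.

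What stood out was the spread between the control arrays. LysM+/+ arrays 2 and 3 carried the most epithelial signal, and LysM+/+ array 1 among the least. Array 2 gave the highest value for 16 members and array 3 for 15, LysM+/cre array 2 for the remaining 4, whereas over all genes these arrays were highest for 16.5%, 15.2% and 11.8%. LysM+/+ array 1 was lowest for 13 members and LysM+/cre array 4 for another 13 (13.4% and 12.4% of all genes). LysM+/+ array 1 lay below both other controls for 28 members, compared with 27.1% of all genes. LysM+/+ arrays 2 and 3 were both above every LysM+/cre array for 20 members, compared with 8.80% of all genes. The split of LysM+/+ array 1 from LysM+/+ arrays 2 and 3 was not among the planned comparisons, so counts using it are a description.

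**Figure D2:**
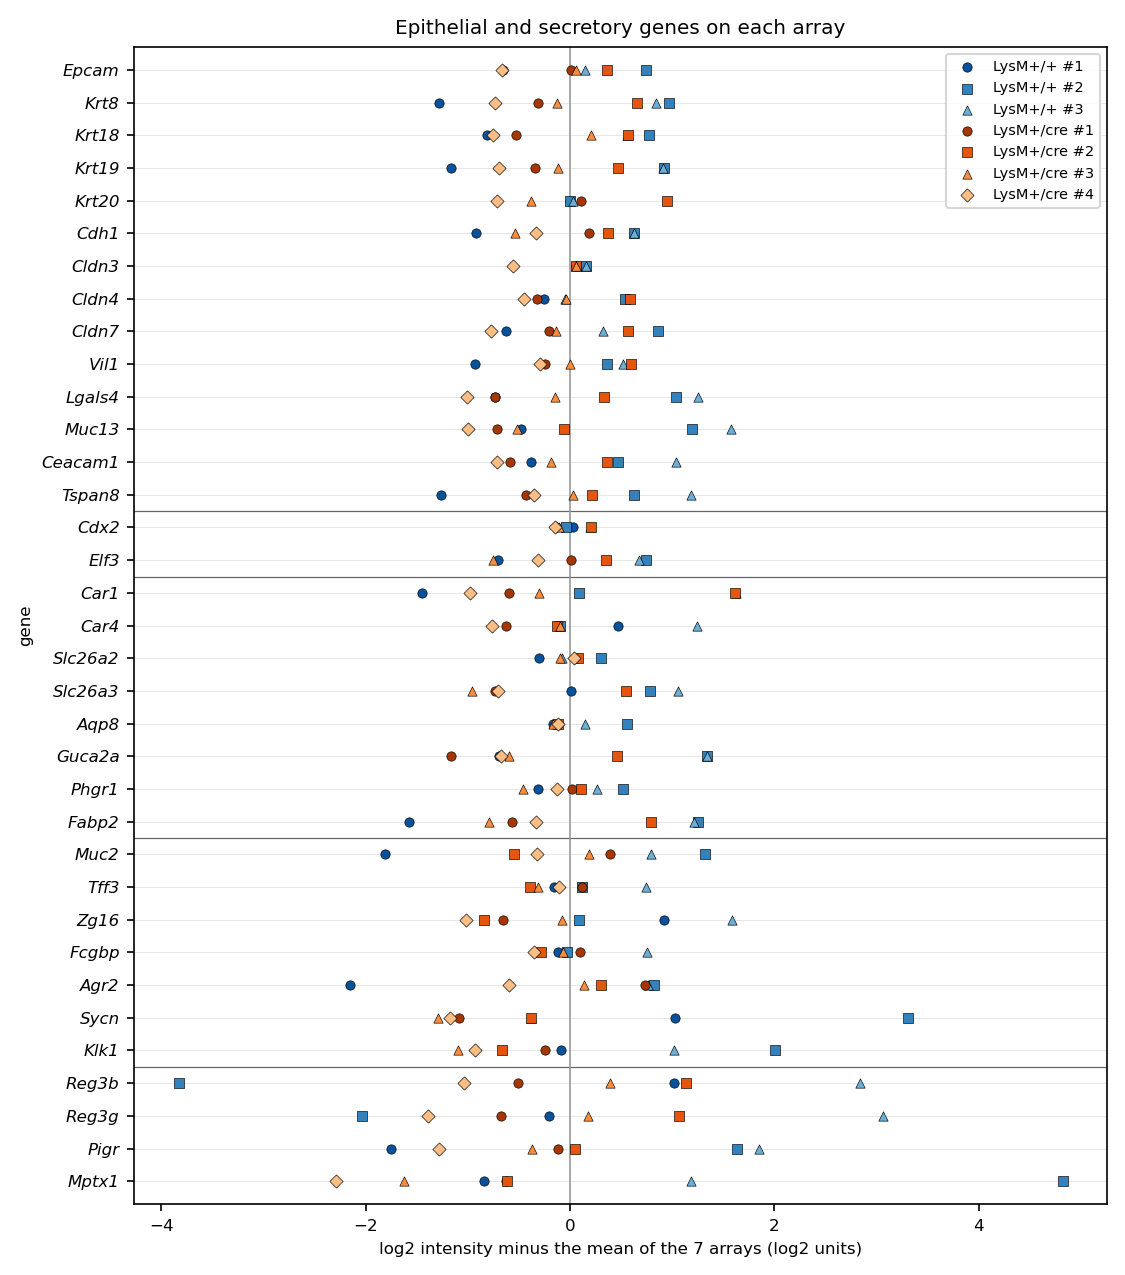
Log2 intensity of each gene on each array minus that gene's mean over the 7 arrays (horizontal axis), 1 row per gene, with horizontal lines between barrier, regulator, absorptive, goblet and defence genes; blue marks LysM+/+ and orange LysM+/cre arrays. LysM+/+ arrays 2 and 3 hold the highest value for 16 and 15 of the 35 genes, and the defence genes in the lowest block spread most.

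Among the genes of the epithelial barrier and cytoskeleton, 13 of 14 had a lower mean with cre, with a median log2 difference of -0.30 that was -0.76 without LysM+/+ array 1 and -0.015 without LysM+/+ array 2. Krt8, a keratin of simple epithelia, lay at 6.93, 9.18 and 9.05 on LysM+/+ arrays 1 to 3 and at 7.90, 8.86, 8.09 and 7.47 on LysM+/cre arrays 1 to 4. Its partner Krt18 lay at 6.53, 8.11 and 7.89 against 6.81, 7.90, 7.55 and 6.59. Both keratins were lowest on LysM+/+ array 1, the array with high acinar genes, and the groups overlapped across most of their range. Krt19, another simple keratin, ran the same course with 5.54, 7.63 and 7.62 against 6.36, 7.18, 6.59 and 6.01. Their log2 differences were -0.31 ± 0.60 for Krt8, -0.30 ± 0.47 for Krt18 and -0.39 ± 0.56 for Krt19 (SE, 3 and 4 arrays), smaller than their errors. Without LysM+/+ array 1 Krt18 differed by -0.79 and Krt19 by -1.09, and without LysM+/+ array 2 by -0.0010 and -0.045. Krt20, a keratin of mature surface cells, did not follow them. It was nearly equal on the 3 controls (5.83, 5.83 and 5.86) and spread from 5.11 to 6.77 with cre.

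The adhesion genes followed the keratins. Epcam, the epithelial cell adhesion molecule, lay at 6.57, 7.96 and 7.37 without cre and at 7.23, 7.58, 7.28 and 6.55 with cre. Cdh1, the cadherin of epithelial junctions, gave 7.53, 9.07 and 9.07 against 8.63, 8.83, 7.91 and 8.12. LysM+/+ array 1 was at or near the bottom for both, and the LysM+/cre arrays filled the space between. The log2 differences were -0.14 ± 0.36 and -0.19 ± 0.43 (SE). Of the tight junction claudins, Cldn7 lay at 5.40, 6.88 and 6.34 against 5.82, 6.60, 5.88 and 5.25, and Cldn4 ran from 6.38 to 7.17 without cre and from 6.19 to 7.22 with cre. Cldn3 carried the same value, 7.25, on 4 arrays and 6.63 on LysM+/cre array 4. Repeats of a value on at least 3 arrays occurred in 30.0% of all genes and in 2 members, Cldn3 and Aqp8, and the origin of the repeats was not tested.

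Muc13, Lgals4 and Ceacam1 had the largest differences of the 14 genes. Muc13, a transmembrane mucin, lay at 7.62, 9.30 and 9.68 without cre and at 7.38, 8.04, 7.58 and 7.10 with cre. Its log2 difference of -1.34 ± 0.49 (SE) had an unadjusted p of 0.0307 and an adjusted p of 0.415 in limma, and LysM+/+ array 1 was inside the range of the LysM+/cre arrays. Lgals4, a galectin of the intestinal epithelium, gave 7.998, 9.76 and 9.98 against 7.999, 9.06, 8.59 and 7.72, a difference of -0.90 ± 0.54. For Ceacam1, an adhesion molecule that leukocytes and endothelium also express, the values were 9.06, 9.91 and 10.48 against 8.86, 9.81, 9.26 and 8.73, a difference of -0.66 ± 0.39. The tetraspanin gene Tspan8 ran from 5.43 to 7.88 without cre and from 6.26 to 6.90 with cre, a difference of -0.32 ± 0.55. Vil1, which encodes villin of the microvillus core, had a difference of 0.029 ± 0.39, the only higher mean among the 14. Of the regulators, Elf3, an epithelial ETS factor, ran from 5.60 to 7.04 without cre and from 5.55 to 6.66 with cre, while Cdx2, the homeobox factor of intestinal identity, stayed within 5.52 to 5.87 on all arrays.

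Absorptive colonocyte genes had lower means with cre for 7 of 8 members, with a median log2 difference of -0.42 that was -0.95 without LysM+/+ array 1 and -0.14 without LysM+/+ array 2. Car4, a membrane-bound carbonic anhydrase of surface colonocytes, lay at 6.98, 6.41 and 7.76 without cre and at 5.88, 6.38, 6.41 and 5.75 with cre. The groups met at 6.41, and the difference was -0.94 ± 0.33 (SE, unadjusted p = 0.0252, adjusted p = 0.408 in limma). Slc26a3, the chloride-bicarbonate exchanger of the colon, gave 6.51, 7.28 and 7.56 against 5.76, 7.06, 5.55 and 5.80, a difference of -1.07 ± 0.41 (adjusted p = 0.416 in limma). Only LysM+/cre array 2 reached into the control range for this gene. Guca2a, which encodes guanylin, a peptide regulating salt and water secretion, lay at 7.83, 9.88 and 9.88 against 7.36, 8.99, 7.93 and 7.86. Its difference was -1.16 ± 0.60, and LysM+/+ array 1 lay inside the range of the arrays with cre.

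Other absorptive genes were spread within both genotypes. Car1, the abundant cytosolic carbonic anhydrase of the colon, lay at 7.66, 9.19 and 10.73 without cre and at 8.499, 10.72, 8.79 and 8.12 with cre. Its highest values, on LysM+/+ array 3 and LysM+/cre array 2, were nearly equal, and the difference of -0.16 ± 0.86 was far below its error. Fabp2, an intestinal fatty acid binding protein, gave 4.43, 7.26 and 7.22 against 5.44, 6.79, 5.21 and 5.67. Slc26a2, a sulphate transporter, was the steadiest member of the group, between 8.09 and 8.69 on all 7 arrays and between 8.28 and 8.46 with cre. The water channel gene Aqp8 and the small proline-rich gene Phgr1 lay below the median gene on average, at 4.88 to 5.60 and 4.70 to 5.67.

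Genes of goblet cells and other secretory products split into several courses. The median log2 difference of the 7 was -0.41, with 6 lower. Muc2, the gel-forming mucin, lay at 8.01, 11.14 and 10.61 without cre and at 10.21, 9.28, 10.01 and 9.50 with cre. Agr2, a disulphide isomerase needed for mucin assembly, gave 5.42, 8.39 and 8.33 against 8.30, 7.88, 7.71 and 6.97. LysM+/+ array 1 was the lowest of all 7 arrays for both genes, and every array with cre lay between it and LysM+/+ array 2. Their differences were -0.17 ± 0.73 and 0.34 ± 0.76 (SE).

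Zg16, a lectin-like protein of the inner mucus layer, took another course. It lay at 6.95, 6.11 and 7.61 without cre and at 5.38, 5.19, 5.95 and 5.01 with cre, and the groups did not overlap. The difference was -1.51 ± 0.37 (SE, unadjusted p = 0.00514, adjusted p = 0.354 in limma). LysM+/+ array 1, the lowest for Muc2, was 0.085 above the mean of the other controls for Zg16. Acinar genes were high on that array, with Ctrb1 at 11.21, and their part in its Zg16 value was not tested. The mucus protein genes Fcgbp and Tff3 differed less, by -0.36 ± 0.23 and -0.41 ± 0.23, with LysM+/+ array 3 highest for each at 6.91 and 8.62.

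Klk1 and Sycn were the secretory genes with the largest differences. Klk1, tissue kallikrein, lay at 8.76, 10.85 and 9.86 without cre and at 8.60, 8.19, 7.75 and 7.92 with cre, a difference of -1.71 ± 0.47 (SE, unadjusted p = 0.00869, adjusted p = 0.376 in limma). The groups did not overlap, although LysM+/+ array 1 and LysM+/cre array 1 were close. Sycn, syncollin, a protein of secretory granules also made by the pancreas, gave 8.17, 10.44 and 6.75 against 6.05, 6.75, 5.84 and 5.96, a difference of -2.30 ± 0.80 (adjusted p = 0.406 in limma). It was highest on LysM+/+ array 2, where Ctrb1 was at 5.70 and Cela1 at 7.07. Next highest was LysM+/+ array 1, where Ctrb1 was at 11.21 and Cela1 at 7.88. The mean log2 level of the 9 acinar genes was 4.96 on LysM+/+ array 2 and 7.74 on LysM+/+ array 1. The part of the acinar genes in the Sycn and Klk1 values of LysM+/+ arrays 1 and 2 was not tested. Without LysM+/+ array 2 the differences were -1.20 for Klk1 and -1.31 for Sycn.

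**Figure D3:**
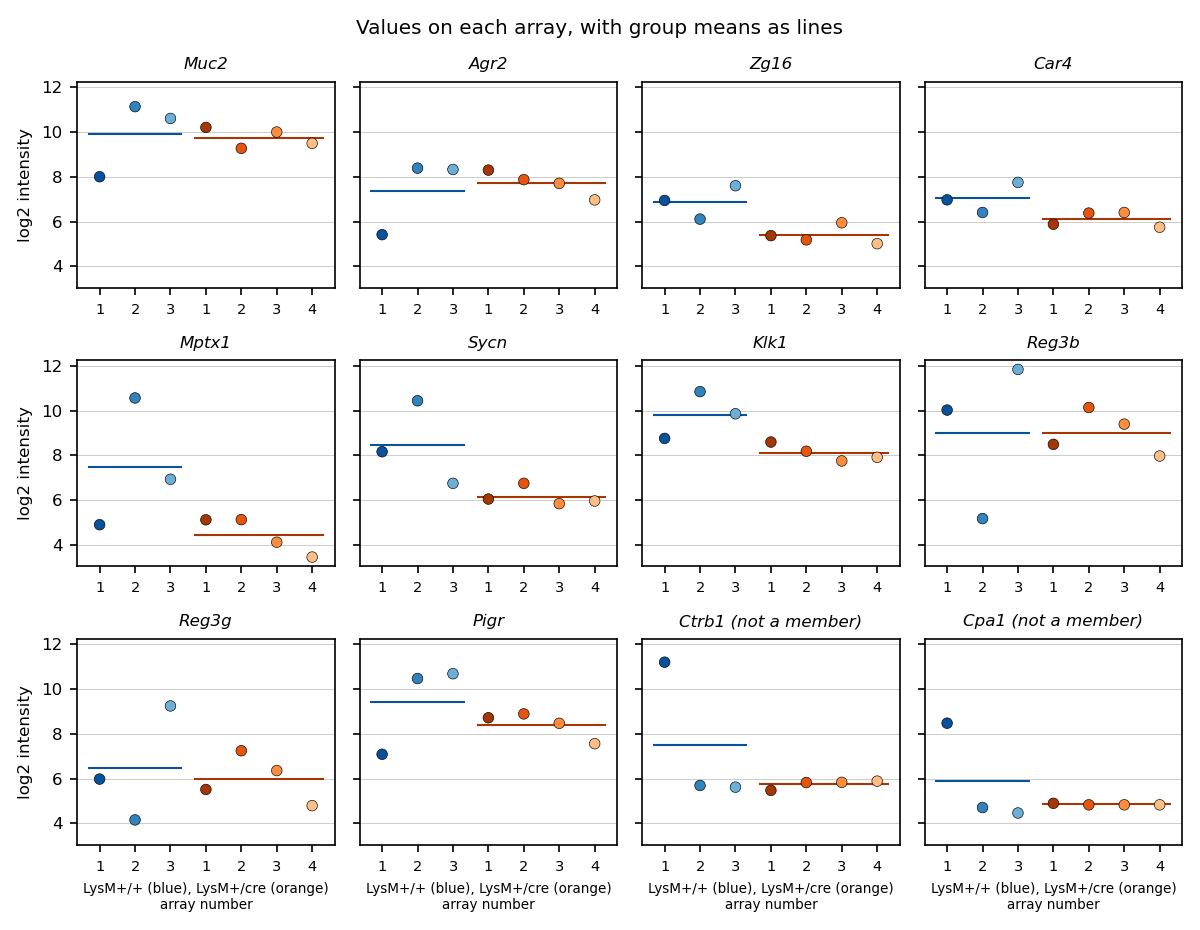
Log2 intensity (vertical axis) of 10 members and 2 pancreatic genes on each of 7 arrays (horizontal axis, by group and array number), with lines at the group means. LysM+/+ array 1 is lowest for Muc2, Agr2 and Pigr and highest for Ctrb1 and Cpa1, while LysM+/+ array 2 is highest for Mptx1, Sycn and Klk1 and lowest for Reg3b and Reg3g.

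The antimicrobial and mucosal defence genes varied most of all. Reg3b, a C-type lectin of the Reg3 family, lay at 10.03, 5.18 and 11.84 without cre and at 8.49, 10.14, 9.40 and 7.97 with cre. Its close relative Reg3g, which binds peptidoglycan, gave 5.98, 4.16 and 9.25 against 5.52, 7.25, 6.36 and 4.80. Both genes had their highest and their lowest array among the controls, on LysM+/+ arrays 3 and 2, a range of 6.67 for Reg3b and 5.09 for Reg3g on the log2 scale. Their genotype differences were -0.015 ± 1.501 and -0.48 ± 1.19 (SE), with 95% confidence intervals from -3.58 to 3.55 and from -3.31 to 2.35. LysM+/+ array 2 was thus low for the Reg3 genes while among the highest for keratins and Muc2. Neutrophil genes were also lowest on that array, with a mean log2 level over 12 genes of 5.97 against 7.12 to 7.84 on the other controls and 6.97 to 8.89 with cre, and their part in the Reg3 values was not tested.

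The Reg3 pair lies on 1 chromosome, and the sequences before their start sites share a run of bases. The 250 bases upstream of each start, from RefSeq on GRCm38.p6, are shown because both genes shared their highest and lowest arrays, with capitals for the longest run of bases that they share, which is 20 bases long and ends at the start site in both. Reg3b is at chr6:78370635-78370884 on the plus strand and Reg3g at chr6:78468875-78469124 on the minus strand.
Reg3b: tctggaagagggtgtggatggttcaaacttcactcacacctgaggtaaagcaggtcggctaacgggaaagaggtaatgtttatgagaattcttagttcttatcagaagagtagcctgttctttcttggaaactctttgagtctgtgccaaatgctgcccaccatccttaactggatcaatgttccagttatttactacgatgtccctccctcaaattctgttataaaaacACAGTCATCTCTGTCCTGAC
Reg3g: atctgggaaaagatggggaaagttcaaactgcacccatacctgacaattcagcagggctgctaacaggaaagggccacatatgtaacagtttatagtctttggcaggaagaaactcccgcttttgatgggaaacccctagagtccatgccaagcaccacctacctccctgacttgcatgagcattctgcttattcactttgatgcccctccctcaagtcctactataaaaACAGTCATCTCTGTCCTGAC
The labels and tables used here do not say which bases the probes of either gene cover, so signal shared between the pair cannot be told apart from shared expression.

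Pigr, the receptor that carries immunoglobulin A across the epithelium, lay at 7.09, 10.48 and 10.69 without cre and at 8.72, 8.90, 8.48 and 7.57 with cre. It followed Muc2 and the keratins rather than the Reg3 genes, and its difference was -1.005 ± 0.89 (SE), or -2.17 without LysM+/+ array 1 and -0.37 without LysM+/+ array 3. Mptx1, mucosal pentraxin, had the largest difference of all members, -3.01 ± 1.25 (SE, unadjusted p = 0.0480, adjusted p = 0.433 in limma). It lay at 4.90, 10.57 and 6.94 on the controls against 5.12, 5.13, 4.12 and 3.46, so the difference rests largely on LysM+/+ array 2, without which it was -1.46. LysM+/+ array 1 lay inside the range of the arrays with cre.

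Upstream sequence was available for 29 of the 35 members and was searched on both strands for short core motifs of factors that act in intestinal epithelium. In the 250 bases before the start, TTTATG (CDX) occurred in 4 members, or 13.8%, and in 10.9% of the tested genes with a sequence. GTTAAT (HNF1) also occurred in 4 members, against 6.93% of those genes, and CAAAGTC (HNF4) in 1 member, Muc13, against 4.26%. A gene with several matches was counted once, and no match in a member overlapped another. Mptx1 and Slc26a3 had 2 HNF1 matches each and are shown for that, with the matches in capitals, Mptx1 at chr1:174330268-174330517 and Slc26a3 at chr12:31437969-31438218, both on the plus strand of GRCm38.p6.
Mptx1: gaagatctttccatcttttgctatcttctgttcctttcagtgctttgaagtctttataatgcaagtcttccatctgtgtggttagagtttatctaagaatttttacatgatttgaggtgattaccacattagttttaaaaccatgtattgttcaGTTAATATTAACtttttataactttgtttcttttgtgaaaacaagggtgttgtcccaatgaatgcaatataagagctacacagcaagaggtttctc
Slc26a3: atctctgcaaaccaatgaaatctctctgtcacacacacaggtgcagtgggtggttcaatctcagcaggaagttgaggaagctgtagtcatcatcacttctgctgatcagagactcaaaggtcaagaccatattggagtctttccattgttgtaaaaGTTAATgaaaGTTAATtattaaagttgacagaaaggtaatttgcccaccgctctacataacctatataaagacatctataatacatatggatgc
In Mptx1 the matches begin 96 and 90 bases before the start and face each other, and in Slc26a3 they begin 94 and 84 bases before it and point the same way. These are matches of letters only.

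Set side by side, the roles did not share 1 order of arrays. The median deviation of the barrier genes from each gene's mean over the 7 arrays was -0.69, 0.68 and 0.59 on LysM+/+ arrays 1 to 3 and -0.32, 0.42, -0.12 and -0.70 on LysM+/cre arrays 1 to 4. For the absorptive genes it was -0.31, 0.53 and 1.13 against -0.58, 0.28, -0.38 and -0.50. LysM+/cre array 2 was the highest of its group in both roles. For the goblet and secretory genes, which gave -0.12, 0.82 and 0.76 against 0.095, -0.40, -0.077 and -0.60, LysM+/cre array 2 was below LysM+/cre arrays 1 and 3. The defence genes had 2.34 on LysM+/+ array 3 and at most 0.56 on any other array.

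**Figure D4:**
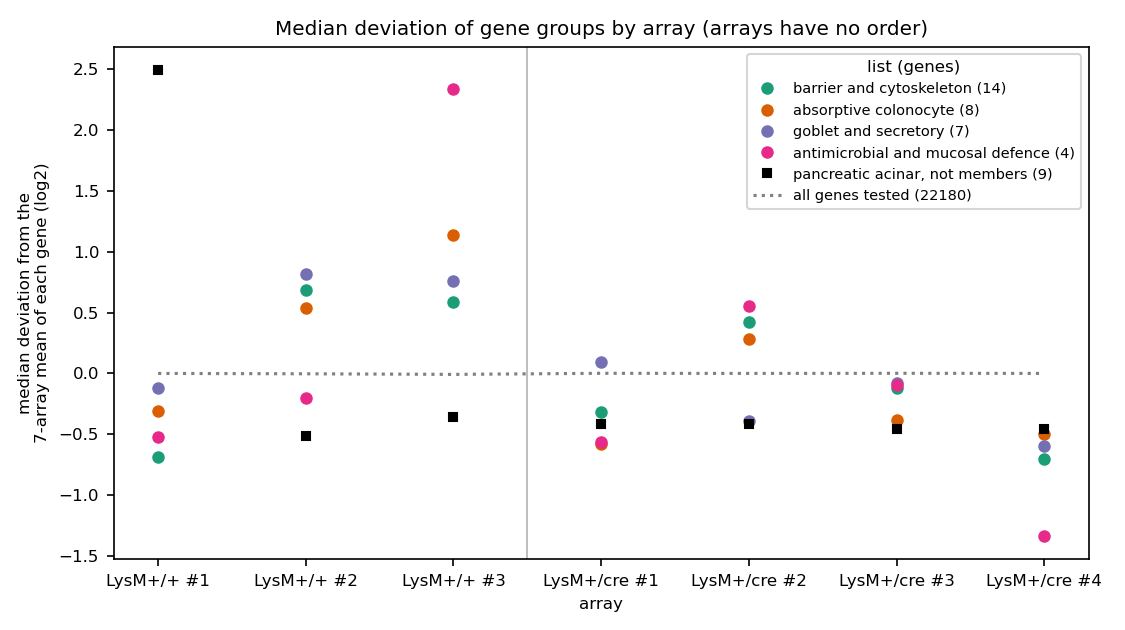
Median over the genes of each role of the deviation from a gene's mean over 7 arrays (vertical axis, log2) on each array (horizontal axis), with 9 pancreatic acinar genes and all genes tested for comparison. The acinar median is 2.49 on LysM+/+ array 1 and below 0 on the other 6 arrays, and each epithelial group is highest on LysM+/+ array 2 or 3.

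The comparison of genotypes therefore depended on which control array was kept. Without LysM+/+ array 1, the one with high acinar genes, the median log2 difference of the members was -0.88, with 34 of 35 lower and 19 of them at an unadjusted p under 0.05 against a background of 5.51%. No member passed the adjustment in that fit (smallest adjusted p = 0.143 in limma). Without LysM+/+ array 2 the median was -0.16, with 26 members lower and 5 at that unadjusted p (background 4.51%). Without LysM+/+ array 3 it was -0.155, with 25 members lower and 3 at that p (background 4.21%). Without LysM+/cre arrays 1 to 4 in turn, 30, 33, 31 and 28 members were lower. The count at that p was 2 without LysM+/cre array 1 (background 3.23%), 7 without array 2 (4.25%), 3 without array 3 (4.13%) and 2 without array 4 (3.56%) of that group. The defence genes had a median of -1.55 without LysM+/+ array 2 and of 0.27 without LysM+/+ array 3.

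**Figure D5:**
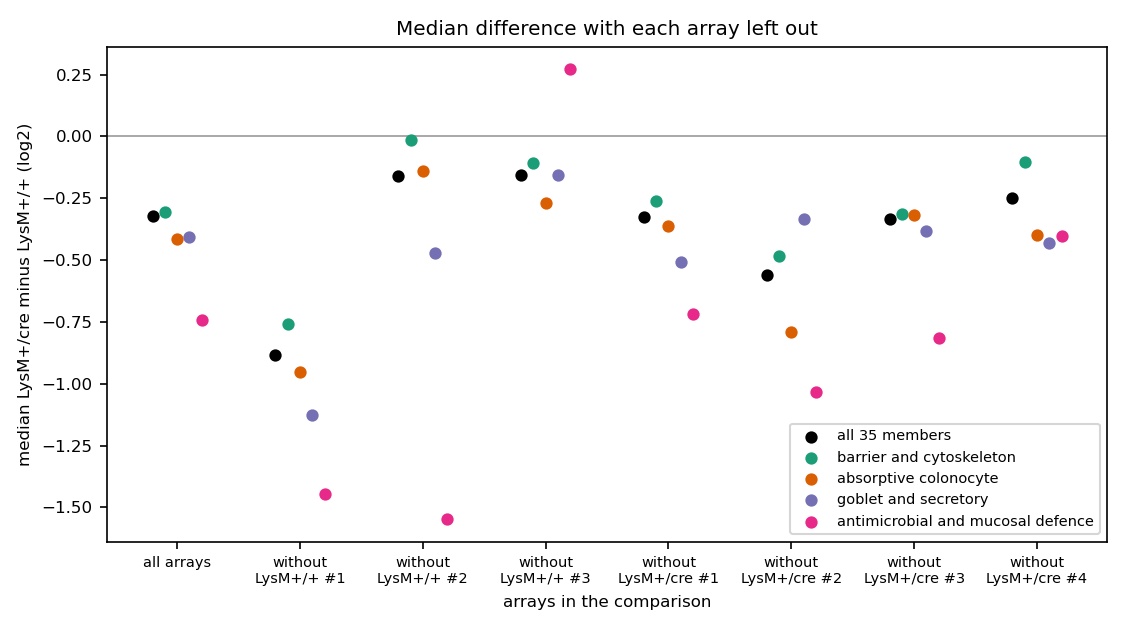
Median log2 difference between genotypes (vertical axis) over all 35 genes and over 4 roles, with all arrays and with each array left out (horizontal axis). All medians are lowest or second lowest without LysM+/+ array 1, and the defence genes cross 0 without LysM+/+ array 3.

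Of 71 further epithelial genes listed, 68 were measured. They had a median log2 difference of -0.13, with 51 of 68 lower, where 48.6% of all genes were lower. At an unadjusted p under 0.05, 5 were lower and 1 higher, where 4.93% and 6.56% of all genes were. The colonocyte and junction genes among them had lower means with cre for 26 of 29, with a median log2 difference of -0.33, close to the -0.32 of the members, and at that p 4 were lower and 1 higher. The smallest p-values belonged to Spint1, a protease inhibitor, at 0.77 ± 0.18 (SE), Dpep1, a dipeptidase, at -1.38 ± 0.39, and the keratin gene Krt23 at -0.94 ± 0.32. Spint1 ran against the rest, with 8.64, 9.04 and 8.52 without cre and 9.82, 9.56, 9.18 and 9.44 with cre. Of 13 further goblet genes 8 were lower, with a median of -0.077, and 1 was at an unadjusted p under 0.05. This was Clca1, a secreted mucus protein, at 5.45, 5.84 and 6.94 against 4.90, 4.96, 5.08 and 4.92, and the next were Ang4 (0.38) and Creb3l1 (-0.33).

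Among 13 regulator and stem cell genes 9 were lower (median -0.10), with none at an unadjusted p under 0.05. Smallest in p were Vdr, the vitamin D receptor, at 0.65 ± 0.31, Klf4 at -0.72 ± 0.40 and Isx at -0.52 ± 0.37. Vdr lay at 7.755 to 9.44 and Klf4 at 8.91 to 11.03, and the part of the sorted macrophages in these values was not tested. The 13 enteroendocrine and tuft cell genes had a median of -0.073 and none at that p, the smallest belonging to Sct (-0.12), Pyy (-0.36) and Dclk1 (0.23). Markers of the small intestine and Paneth cells had a median of -0.020 over 12 genes, 6 of them lower, with 2 lower at that p and 2 whose LysM+/cre arrays all lay above the controls. Over all genes, 48.6% were lower, 4.93% were lower at that p and 5.23% had every LysM+/cre array above the controls. The brightest were Lyz1, lysozyme of Paneth cells, with a difference of 1.41, and Mmp7, with 0.0050. A part of Lyz2, the LysM gene whose locus holds cre, in the Lyz1 value was not tested. None of the genes in these lists passed the adjustment over all genes in limma.

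Genes whose pattern was most like that of the members were named by Pearson's r over the 7 arrays with the mean deviation of the 33 members above the median gene. Among 1989 other genes above the median gene and ranging over at least 1 log2 unit, Atp1b1, a subunit of the sodium pump, came closest (r = 0.997). It lay at 7.08, 9.41 and 9.76 without cre and at 7.59, 8.53, 7.69 and 6.98 with cre. Next came Tspan1 (r = 0.987), Atp8b1, a phospholipid flippase (0.982), Spint2, a protease inhibitor (0.974), and Fads3 (0.969). Car2, a carbonic anhydrase, Kcnq1, a potassium channel, Csrp2 and Myo1d followed at 0.955 each, and Vamp1 at 0.953. The 7 arrays are the only points behind these values, and the genes were picked for them.

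Genes listed as markers of cell types outside the gate also differed between arrays, and none of those listed passed the adjustment over all genes in limma. Whether the sorted macrophages themselves gave part of their signal was not tested. Over all genes, 48.6% had a lower mean with cre, with 4.93% lower and 6.56% higher at an unadjusted p under 0.05. The 9 acinar genes had a median log2 difference of -0.99, with 9 lower means and 2 genes lower at that p. Their mean log2 level was 7.74 on LysM+/+ array 1 and 4.82 to 4.96 on the other arrays. The mean log2 level of 12 fibroblast genes was 7.47 to 7.74 without cre and 6.99 to 7.49 with cre, with 9 lower means and 4 genes lower at that p. Their brightest genes were Dcn, decorin, at 10.94 to 11.93 against 9.64 to 10.45, and Dpt, at 9.60 to 10.36 against 8.44 to 10.03. For 10 smooth muscle and pericyte genes the level was 6.21 to 6.60 against 5.96 to 6.34, with 10 lower means and 2 genes lower at that p. Acta2, smooth muscle actin, differed by -0.32 and Tagln by -0.35. The epithelial members had 6.72 to 8.12 against 6.56 to 7.49, a wider range within each genotype than the fibroblast or the smooth muscle list.

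Endothelial genes ran from 5.77 to 6.48 without cre and from 5.93 to 6.03 with cre, with 11 of 12 lower and 0 at an unadjusted p under 0.05. Their brightest genes were Pecam1, which leukocytes also express, with a difference of 0.91, and Eng, with -0.16. Enteric neuron and glia genes ran from 4.81 to 5.07 and from 4.84 to 4.92, with Ret at 0.0068 and Uchl1 at -0.15. Neutrophil genes had higher means with cre for 12 of 12, with a median log2 difference of 0.46 and 1 gene higher at that p. Il1r2 and Csf3r were the brightest of them, with differences of 0.65 and 0.24. T and NK cell genes lay at 5.69 to 5.81 against 5.53 to 5.74, with 1 gene lower and 1 higher at that p, and the brightest were Il7r (0.016) and Cd4 (-0.70). B and plasma cell genes lay at 6.13 to 6.21 against 6.08 to 6.498, with 7 of 11 higher and 1 higher at that p, and the brightest were Sdc1 (1.05) and Jchain (-0.89). The part of these cells in the epithelial values was not tested.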

How the data were processed

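Total RNA of sorted colon macrophages was hybridised to 7 arrays, 1 per sample. The authors deposited 1 log2 intensity for every probe set and sample. Per the submitters' processing notes and the design text, Affymetrix Expression Console and Transcriptome Analysis Console were used, and neither source names the summarisation or the background correction. Array medians lay between 5.16 and 5.21, so a shift shared by all genes would not be seen. Precision is limited by there being 7 arrays.

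Of 41345 probe sets, 23521 had exactly 1 symbol in the platform annotation, 1814 had several and 16010 none listed. The probe set with the highest mean was kept for each of 22180 genes. The LysM+/cre minus LysM+/+ difference was tested by limma (version 3.58.1, R 4.3.3; lmFit, then eBayes), two-sided, with no covariate and Benjamini-Hochberg adjustment over all genes at 0.05. Simulated data (10 sets, each of 22180 genes, 200 of them changed) served as a test of the fit. It recovered 86.7% of the 2-fold and 98.1% of the 4-fold genes, with 5.58% of calls false. These rates are for the changed genes of those sets and not for the members. The noise was drawn separately for each gene and array, so a shift shared by genes on 1 array was not simulated. Recovery of changes in the members, with SE from 0.11 (Cdx2) to 1.50 (Reg3b), was not tested. No test was run on a list. Earlier results of these data were known when the members, the lists and the naming rule were chosen. Named were all members, the 3 genes of smallest p in each list of other epithelial genes, the 10 most alike in pattern, gate genes and the 2 brightest markers of each outside list. Cpa1, in a plot, was chosen after its values were seen. Promoters came from RefSeq (GRCm38.p6). The counts of genes and members, the medians of the members, of their roles and of the other epithelial genes together, and the differences of the members and 12 other epithelial genes were recomputed with arrays rescaled in 2 ways, without dim genes, with probe sets averaged, with a variance trend, with array weights, with the replicate number as a block, and without each array in turn. Array orders, pattern correlations, separate lists and outside genes were not recomputed. Plots were made in matplotlib 3.10.9.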

Additional observations from a re-analysis of the deposited data

Results flagged for a closer look

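Among the 4 LysM+/cre arrays, 4 of 47 genes checked had 1 array far from the others by Dixon's criterion at 95%, which chance gives for about 1 gene in 20. Cldn3 was at 6.63 on LysM+/cre array 4 and at 7.25 on each of the others, and Aqp8 was at 4.88 on LysM+/cre array 3 and at 4.92 on the others. For both genes the other 3 values repeat, so any departure meets the criterion and it carries no information there. Cdx2 was at 5.87 on LysM+/cre array 2 and between 5.52 and 5.56 on the others. Slc26a3 was at 7.05 on LysM+/cre array 2 and between 5.55 and 5.80 on the others, and that array was also the highest of its group for Car1, Guca2a and Fabp2.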

How the results depend on the processing

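No gene was called under any of 14 other settings by limma. Leaving out 1 array moved the count of genes at an unadjusted p under 0.05 between 1693 and 2779 (2549 with all), of members at that p between 2 and 19 (7 with all), and of members highest on LysM+/+ array 3 between 15 and 26. The count of members lower with cre lay between 25 and 34 (32 with all). The median difference then lay between -0.88 and -0.155 for the members and between -1.13 and -0.155 for the goblet and secretory genes. Differences that changed sign without an array ranged from -0.50 to 0.19 for Epcam, -1.03 to 0.088 for Krt8, -0.34 to 0.21 for Krt20, -0.70 to 0.071 for Cdh1, -0.35 to 0.096 for Cldn4, -0.73 to 0.014 for Cldn7, -0.43 to 0.30 for Vil1, -1.04 to 0.18 for Tspan8, -0.93 to 0.61 for Car1, -0.092 to 0.21 for Slc26a2, -1.13 to 0.44 for Muc2, -0.65 to 0.84 for Agr2, -1.93 to 1.40 for Reg3b and -1.64 to 0.91 for Reg3g. Averaging probe sets turned Cdh1 to 0.079, quantile normalization Slc26a2 to -0.011 and equal array medians Reg3b to 0.0090. The cause of these changes was not tested.

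Same-numbered arrays correlated in their deviations from their group means at -0.115, 0.121 and 0.103, and not every array correlated best with its own number. Deviations within groups of 3 and 4 arrays cannot show whether the replicate numbers pair the arrays, and the main fit used no pairing. With the replicate block, fitted without LysM+/cre array 4, 2139 genes and 5 members had an unadjusted p under 0.05. Leaving out that array with no block gave 1893 genes and 2 members. In both fits the members' median was -0.25, and the signs of Epcam (0.064), Krt20 (0.21), Car1 (0.14) and Reg3b (0.33) turned. These turns therefore came with leaving out LysM+/cre array 4 and not with the block. With only genes above the median gene, 33 members were tested. The probes' positions, the signal of single probes and the scan batches were not analysed here.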

Other observations

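Some genes stood at least 2 log2 units above every other array on a single array, a criterion chosen after the data were seen. LysM+/+ array 1 had 16 such genes, most of them products of the exocrine pancreas. Reg1, a regenerating protein of acinar cells, was at 9.46 there and at most 2.96 elsewhere, Cpb1, a carboxypeptidase, at 7.94 and at most 3.19, and Gp2, a zymogen granule membrane protein, at 6.78 and at most 4.02. The immunoglobulin gene Ighg3 was among them at 8.91 and at most 4.83.

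LysM+/+ array 2 had 15 such genes, 2 of them members, Mptx1 and Sycn. With them stood Gsdmc3, a gasdermin, at 6.91 and at most 2.92 elsewhere, Gsdmc2 at 6.72 and at most 4.70, Fxyd2, a regulator of the sodium pump, at 8.90 and at most 5.79, and Chp2 at 8.92 and at most 6.48. The same array held macrophage-associated genes such as Retnla (11.38, at most 9.17 elsewhere) and Cd36 (11.67, at most 9.53). LysM+/+ array 3 had 12, of which Reg3g was the 1 member. Several of the others were Olfr and Vmn1r receptor genes, such as Vmn1r257 (5.63, at most 2.91 elsewhere) and Olfr508 (6.06, at most 3.38). LysM+/cre array 3 had 5, among them Mmp8 and Chil3, LysM+/cre array 4 had 2, and LysM+/cre arrays 1 and 2 had 0.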
